A study of Homo sapiens with 6 samples.

Results

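AP-1 is a transcription factor built from 1 FOS family protein and 1 JUN family protein, or from 2 JUN family proteins, which bind DNA through a basic region and hold together through a leucine zipper. Many of its genes are immediate early genes, whose transcription is switched on within minutes of a growth factor, stress or adhesion signal without new protein synthesis, and MYC, a basic helix-loop-helix leucine zipper factor of cell growth, follows the same signals. In carcinoma cells the FOS family member FOSL1 (FRA1) is known as an abundant subunit linked to invasion, whereas FOS and FOSB are usually low without a stimulus.

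To ask how these genes stand in prostate cancer cells with upregulated GCNT1, 10 genes were taken by name: FOS, FOSB, FOSL1, FOSL2, JUN, JUNB, JUND, EGR1, IER3 and MYC. Of these, 8 were matched by Entrez identifier to the 12703 genes of the count table, and EGR1 and IER3 were not analysed here. The samples were PC3 cells, an established cell line from a bone metastasis of prostate cancer. One group of 3 carried a Lenti-ORF negative control and the other group of 3 carried a GCNT1 overexpression lentivirus; both were stably transduced and are called control and GCNT1 overexpressing libraries 1 to 3. GCNT1 makes the core 2 branch of O-glycans. The sources used here do not say whether a line was 1 clone or whether the 3 lines of a group came from separate transductions. The p values weigh each group difference against the spread between these libraries, and may not cover the spread between separate transductions.

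The libraries held 11392213 to 13825704 counts. GCNT1 itself was counted 8 to 13 times in control libraries and 13 to 35 times in GCNT1 overexpressing libraries (log2 fold change 0.98, standard error 0.37, p value 0.0362 in edgeR's quasi-likelihood test, adjusted by Benjamini-Hochberg). The adjusted p value rose to 0.092 without control 1, 0.0944 without control 3 and 0.269 without GCNT1 overexpressing library 3. The authors also examined GCNT1 in their overexpressing PC3 cells by ELISA, immunocytochemistry and real-time PCR, which are not part of these counts. The keratins KRT8, KRT18 and KRT19 and vimentin had between 202 and 1390 mean CPM in each group. Of the 6 markers of the line vimentin, a mesenchymal filament that holds most of their sum (1910 to 2030 CPM in controls, 1969 to 2168 with overexpression), rose from 1127 to 1390 mean CPM. KRT18 fell from 253 to 222, KRT19 from 369 to 230 and the epithelial cadherin CDH1 from 3.59 to 1.10 mean CPM, while KRT8 and EPCAM did not pass the test. The androgen-response marker TMPRSS2 stood at 4.20 ± 0.567 CPM in controls and fell to 1.75 ± 0.190 (edgeR adjusted p value 9.25e-05). No leukocyte marker of 5 was among the genes analysed, COL1A1 was the 1 fibroblast marker of 5 (13.7 to 15.7 CPM against 8.23 to 8.86), and of 4 endothelial markers PECAM1 rose from 1.77 to 4.43 mean CPM while KDR fell from 154 to 53.1.

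MYC, FOSB and FOS were upregulated when GCNT1 was overexpressed, by 2.06-fold (95% confidence interval 1.87 to 2.26), 2.52-fold (1.82 to 3.50) and 1.82-fold (1.27 to 2.59). JUNB rose by a smaller amount, 1.27-fold. FOSL2, JUN and JUND were downregulated, to 0.691, 0.822 and 0.795 of their control levels, and FOSL1, by far the most abundant of them, did not pass the test. In bulk RNA a change in the share of cells that express a gene and a change per cell cannot be told apart. Of the 8 genes, 7 thus had an adjusted p value under 0.05 in edgeR's quasi-likelihood test, 4 higher and 3 lower, against a background of 57.6% of all genes tested (28.3% higher and 29.3% lower). With the added minimum of 0.58 on the absolute log2 fold change, which defines a called gene here, 3 of the 8 were called, all of them higher, where 19.3% of all genes were called (8.28% higher and 11.1% lower). The 3 libraries of each group did not overlap in 7 of the 8 genes, and neither did they in 62.5% of all genes. The median log2 fold change was 0.16 over the 8 genes and 0.00 over all genes. Levels are given as CPM, counts per 1000000 of the library total after scaling by TMM factors, and an exact permutation test of 3 libraries against 3 cannot go below p = 0.10.

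**Figure D1:**
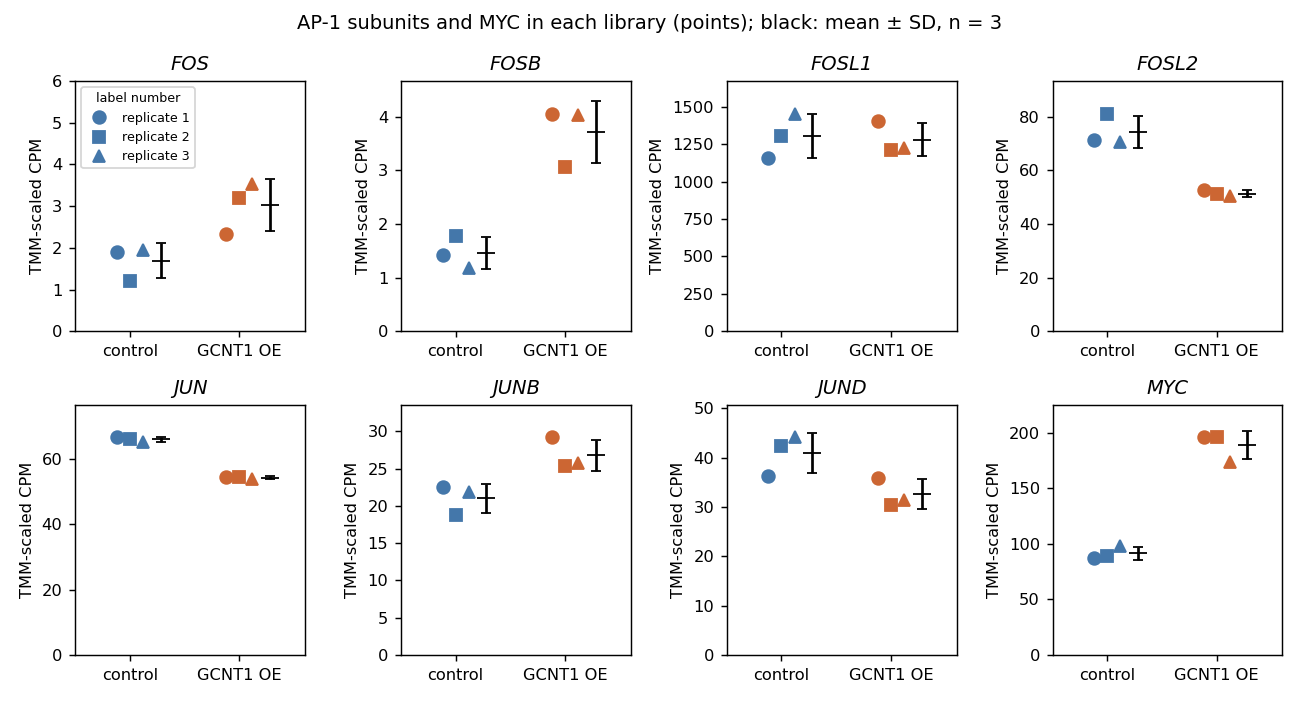
Each panel plots 1 gene's TMM-scaled CPM (vertical axis, from 0) in the 3 control and 3 GCNT1 overexpressing libraries (points, with the marker giving the replicate number of the label), with the group mean ± SD in black. MYC, FOSB, FOS and JUNB sit higher and FOSL2, JUN and JUND lower in every GCNT1 overexpressing library, and the groups overlap for FOSL1 alone.

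Levels between genes were compared per kilobase of the canonical GENCODE transcript. In controls FOSL1 led with 767 ± 86.4 CPM per kb (SD, n = 3), followed by MYC with 24.6 ± 1.58, JUND with 21.2 ± 2.13, JUN with 20.3 ± 0.219, JUNB with 11.5 ± 1.08, FOSL2 with 11.1 ± 0.874, FOS with 0.801 ± 0.198 and FOSB with 0.387 ± 0.0775. JUND and JUN did not differ beyond their spread in either group, nor did JUNB and FOSL2 in controls. With GCNT1 overexpression the order was FOSL1 at 752 ± 65.0, MYC at 50.7 ± 3.37, JUND at 16.9 ± 1.54, JUN at 16.7 ± 0.147, JUNB at 14.6 ± 1.14, FOSL2 at 7.66 ± 0.168, FOS at 1.44 ± 0.297 and FOSB at 0.985 ± 0.152 CPM per kb. JUNB thereby stood clear of FOSL2, and the libraries of JUND and JUNB overlapped.

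FOS and FOSB encode the founding FOS subunits, which have a strong activation domain and short-lived transcripts. FOS (chromosome 14, 75278826 to 75282230 of hg38, plus strand, 4 exons) was counted 24, 15 and 23 times in control libraries 1 to 3 and 27, 44 and 50 times in GCNT1 overexpressing libraries 1 to 3. Its level was 1.91, 1.20 and 1.95 CPM in controls and 2.33, 3.20 and 3.54 CPM with overexpression, so every overexpressing library was above every control, the nearest being control 3 and overexpressing library 1. The mean rose from 1.69 ± 0.417 to 3.03 ± 0.624 CPM (SD over 3 libraries; log2 fold change 0.86, standard error 0.24, edgeR adjusted p value 0.0075). FOSB (chromosome 19, 45467995 to 45475179, plus strand, 4 exons) had counts of 18, 22 and 14 in controls and of 47, 42 and 57 in overexpressing lines. It stood at 1.43, 1.77 and 1.18 CPM in controls and at 4.06, 3.06 and 4.04 CPM with overexpression, which leaves a wide gap between the groups. The mean rose from 1.46 ± 0.293 to 3.72 ± 0.573 CPM (log2 fold change 1.33, standard error 0.22, edgeR adjusted p value 0.000171). Both genes are among the least expressed of the table: 93.8% of all genes had a higher control mean than FOS and 95.1% a higher one than FOSB. The SD of log2 CPM within a group was 0.35 and 0.30 for FOS and 0.26 and 0.22 for FOSB, while counting alone gives 0.32 and 0.23 for FOS and 0.34 and 0.21 for FOSB, so that the depth limits what can be said of single libraries. ERCC1 overlaps FOSB on the opposite strand, and whether the counting used strand is not given in the sources used here.

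For FOS, FOSB, JUNB, FOSL2, JUN and JUND the 400 bases before the RefSeq transcript start were read from hg38 and searched on both strands for the sites through which immediate early genes are known to be switched on. FOSL1 and MYC were not searched. For FOSL2 the RefSeq start lies inside the GENCODE gene given with its counts, so that the searched bases are within that gene and not upstream of it. The CArG box is the site of serum response factor (SRF), TGACG is the core shared by cyclic AMP response elements (CRE) and TGACGTCA is the full CRE, of which TGACG is a part. A CArG box was found before FOS and FOSB and in none of the other 4, and it was found in 1.69% of the 10235 promoters of genes in the count table that could be read. The FOS window held it from 314 to 305 bases before the start, and the FOSB window from 274 to 265. TGACG was found in all 6 windows and in 38.1% of all promoters, and the full TGACGTCA in FOSB and JUND and in 3.31% of all. JUN held TGACATCA from 67 to 60 bases before the start, the variant through which JUN is known to bind its own promoter, and 1.66% of all promoters held it. The AP-1 site proper (TGAGTCA or its reverse complement TGACTCA, 3.89% of all promoters) and the E-box CACGTG (11.8%) were found in none of the 6. Stretches of the searched bases, chosen to hold the CArG boxes or at least 1 match, are printed 5′ to 3′ along the gene's own strand with the matched letters in capitals; further CGTCA matches of FOS, JUN, JUND and FOSL2 lie outside the stretches.
FOS, chr14:75278506-75278777, plus strand: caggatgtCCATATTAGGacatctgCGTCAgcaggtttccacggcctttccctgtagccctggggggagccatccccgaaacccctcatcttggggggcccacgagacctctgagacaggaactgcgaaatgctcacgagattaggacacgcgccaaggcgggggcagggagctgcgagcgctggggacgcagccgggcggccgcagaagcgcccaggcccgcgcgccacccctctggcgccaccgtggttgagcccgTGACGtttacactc
FOSB, chr19:45467661-45467950, plus strand: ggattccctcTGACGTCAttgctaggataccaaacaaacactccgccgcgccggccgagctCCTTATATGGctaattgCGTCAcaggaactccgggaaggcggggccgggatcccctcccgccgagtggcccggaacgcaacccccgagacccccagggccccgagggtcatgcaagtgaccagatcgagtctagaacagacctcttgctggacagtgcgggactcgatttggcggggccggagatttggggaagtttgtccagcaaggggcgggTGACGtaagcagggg
JUNB, chr19:12791336-12791415, plus strand: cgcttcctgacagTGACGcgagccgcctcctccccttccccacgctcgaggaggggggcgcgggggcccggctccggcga
JUN, chr1:58784098-58784177, minus strand: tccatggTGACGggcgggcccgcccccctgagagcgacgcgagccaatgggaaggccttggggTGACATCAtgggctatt
JUND, chr19:18281753-18281832, minus strand: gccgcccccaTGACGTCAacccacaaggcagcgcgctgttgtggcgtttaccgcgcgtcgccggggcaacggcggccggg
FOSL2, chr2:28392748-28392827, plus strand: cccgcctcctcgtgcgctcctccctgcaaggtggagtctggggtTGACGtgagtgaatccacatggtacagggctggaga
In FOS and in FOSB the CArG box is followed within the next 12 bases by CGTCA, the reverse complement of TGACG, as the capitals show. The transcript of SRF had 72.7 ± 2.99 CPM in controls and 78.0 ± 3.14 with overexpression (edgeR adjusted p value 0.153). These matches describe the letters of the windows, and binding was not measured.

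FOSL1 and FOSL2 encode the FOS-related antigens FRA1 and FRA2, which lack the strong activation domain of FOS. FOSL1 (chromosome 11, 65892049 to 65900573, minus strand, 4 exons) had counts of 14602, 16234 and 17194 in controls and of 16289, 16623 and 17242 in overexpressing lines, and its control mean was the 48th highest of all 12703 genes. In CPM it stood at 1160, 1304 and 1454 in controls and at 1407, 1210 and 1222 with overexpression, so the groups overlap. The means were 1306 ± 147 and 1280 ± 111 CPM (log2 fold change -0.03, standard error 0.08, edgeR adjusted p value 0.758), and the 95% confidence interval of the fold ran from 0.875 to 1.10. FOSL2 (chromosome 2, 28392448 to 28417317, plus strand, 4 exons) had counts of 897, 1011 and 837 in controls and of 610, 702 and 713 in overexpressing lines. Its level was 71.3, 81.2 and 70.8 CPM in controls and 52.7, 51.1 and 50.5 CPM with overexpression, where the 3 libraries lay close together. The mean fell from 74.4 ± 5.87 to 51.4 ± 1.13 CPM (log2 fold change -0.53, standard error 0.07, edgeR adjusted p value 1.47e-05), short of the 0.58 required of a called gene. Among the 50 analysed genes nearest to FOSL2 on its chromosome the median change was -0.48, so that FOSL2 lay 0.05 below its neighbours on the log2 scale; the part of the region in its fall was not tested. The antisense gene FOSL2-AS1 overlaps FOSL2. Within each library the counts of FOSL1 relative to FOSL2, a ratio that no scaling changes, were 16.3, 16.1 and 20.5 in controls and 26.7, 23.7 and 24.2 with overexpression.

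JUN, JUNB and JUND encode the JUN subunits, each from a gene with 1 exon. JUN can pair with itself and with FOS proteins and drives proliferation, JUNB is a weaker activator that often opposes it, and JUND is widely expressed and responds little to serum. JUN (chromosome 1, 58776845 to 58784048, minus strand) had counts of 839, 826 and 772 in controls and of 633, 749 and 759 in overexpressing lines, or 66.7, 66.3 and 65.3 CPM against 54.7, 54.5 and 53.8 CPM. This is a small and even difference, with a mean of 66.1 ± 0.713 against 54.3 ± 0.479 CPM (log2 fold change -0.28, standard error 0.05, edgeR adjusted p value 0.000575). Its libraries agreed closely: 97.0% of all genes had a larger SD of log2 CPM in controls and 98.0% with overexpression. That SD was 0.02 in controls and 0.01 with overexpression, while counting alone gives 0.05 in each group. The agreement is thus closer than counting error allows on average, and does not show that JUN is unusually stable. Among the nearest 50 genes the median was -0.19 on the log2 scale, which leaves -0.09 for JUN relative to them.

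JUNB (chromosome 19, 12791486 to 12793315, plus strand) had counts of 283, 234 and 258 in controls and of 338, 349 and 364 in overexpressing lines. Its level was 22.5, 18.8 and 21.8 CPM in controls and 29.2, 25.4 and 25.8 CPM with overexpression, without overlap. The mean rose from 21.0 ± 1.97 to 26.8 ± 2.09 CPM (log2 fold change 0.35, standard error 0.09, edgeR adjusted p value 0.00497). JUND (chromosome 19, 18279694 to 18281622, minus strand) had counts of 456, 527 and 521 in controls and of 416, 417 and 443 in overexpressing lines. It stood at 36.2, 42.3 and 44.1 CPM in controls and at 35.9, 30.4 and 31.4 CPM with overexpression, so that control 1 and overexpressing library 1 nearly met. The mean fell from 40.9 ± 4.11 to 32.6 ± 2.97 CPM (log2 fold change -0.33, standard error 0.09, edgeR adjusted p value 0.00575). Around JUNB and JUND the medians of the nearest 50 genes were 0.02 and 0.04 on that scale. HOOK2 overlaps JUNB on the opposite strand.

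**Figure D2:**
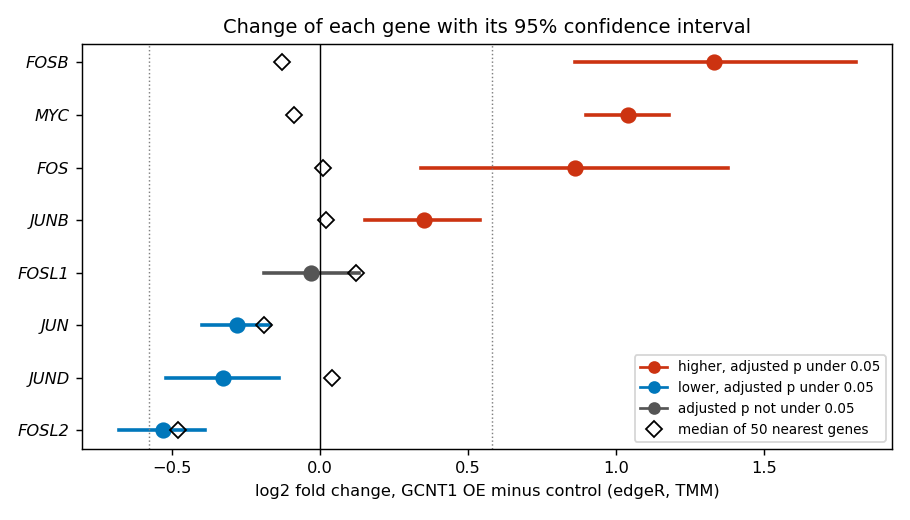
Log2 fold change of each gene (points; horizontal axis, GCNT1 overexpression minus control) with its 95% confidence interval from edgeR (bars) and the median of the 50 nearest analysed genes (open diamonds); dotted lines mark 0.58 in either direction. FOSB, MYC and FOS lie beyond the right dotted line and away from their diamonds, while FOSL2 at -0.53 and JUN at -0.28 lie close to theirs.

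The make-up of the AP-1 transcript pool was next described per library and per kb. FOSL1 held 98.4% ± 0.197 of the FOS family transcripts in controls and 98.7% ± 0.115 with overexpression (SD, n = 3 each). FOSL2 went from 1.43% ± 0.187 to 1.01% ± 0.0626, FOS from 0.104% ± 0.0287 to 0.192% ± 0.0522 and FOSB from 0.0503% ± 0.0125 to 0.129% ± 0.0173. The summed level of the FOS family was 780 ± 86.3 CPM per kb in controls and 762 ± 65.0 with overexpression, and the groups overlapped, although FOS and FOSB together went from 1.19 ± 0.130 to 2.42 ± 0.296 CPM per kb. The summed level of the JUN family went from 53 ± 1.68 to 48.2 ± 2.76 CPM per kb. Its groups did not overlap, though control 1 (51.5) and GCNT1 overexpressing library 1 (51.4) nearly met. In the JUN family the share of JUNB was 23.8%, 19.5% and 21.8% in controls and 31.1%, 29.9% and 30.1% with overexpression. The share of JUN was 36.6% to 39.7% in controls and 32.7% to 36.1% with overexpression, and that of JUND 36.4% to 41.7% and 33.9% to 36.3%. None of the 3 shares overlapped between the groups, though those of JUN and JUND nearly met, and in counts not divided by length the shares of JUND overlapped (28.9% to 33.6% in controls, 27.5% to 30.0% with overexpression). The counts of JUNB relative to JUN went from 0.318 ± 0.0303 to 0.493 ± 0.0360, and those of JUNB relative to JUND from 0.520 ± 0.0909 to 0.824 ± 0.0123, whereas those of JUND relative to JUN overlapped (0.619 ± 0.0678 and 0.599 ± 0.0520).

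**Figure D3:**
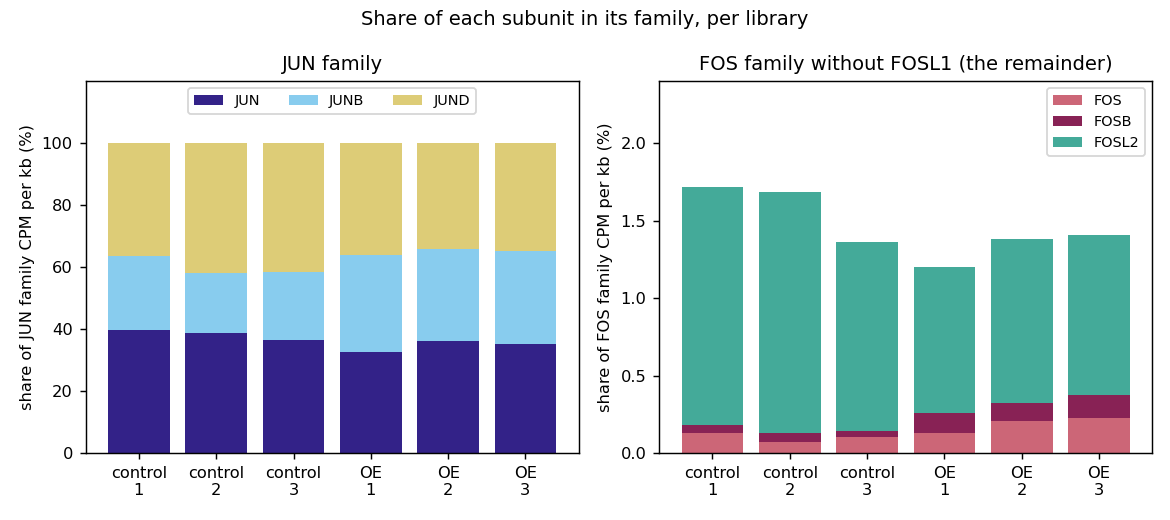
Stacked bars give, for each library, the share of each subunit in the CPM per kb of its family, for the JUN family (left, bars summing to 100%) and for the FOS family members other than FOSL1 (right, on a shorter axis from 0, FOSL1 making up the remainder). The JUNB segment is larger in the 3 overexpressing libraries, 29.9% to 31.1%, than in the 3 controls, 19.5% to 23.8%.

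MYC (chromosome 8, 127735434 to 127742951, plus strand, 3 exons) had counts of 1102, 1108 and 1163 in controls and of 2269, 2686 and 2456 in overexpressing lines. Its level was 87.6, 89.0 and 98.4 CPM in controls and 196, 196 and 174 CPM with overexpression, and the lowest overexpressing library was well above the highest control. The mean rose from 91.6 ± 5.87 to 189 ± 12.5 CPM (log2 fold change 1.04, standard error 0.06, edgeR adjusted p value 2.05e-08). Among the 50 nearest genes the median was -0.09, which places MYC 1.13 above its neighbours on the log2 scale. CASC11 overlaps MYC on the opposite strand.

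MYC acts on DNA in a dimer with MAX, and proteins of the MXD family compete for MAX. MAX rose from 132 ± 6.45 to 167 ± 1.35 CPM (log2 fold change 0.34, edgeR adjusted p value 8.39e-05), and MYC counts relative to MAX went from 0.695 ± 0.0440 to 1.13 ± 0.0666. MXD3 had counts of 351, 309 and 330 in controls and of 110, 113 and 136 in overexpressing lines (log2 fold change -1.56, edgeR adjusted p value 2.01e-08), although RAB24 and PRELID1 overlap it. MXD1 went the other way, from 6.01 ± 0.752 to 10.4 ± 0.895 CPM (log2 fold change 0.79, edgeR adjusted p value 0.000147). MXD4 and MNT rose and MXI1 fell, with log2 fold changes of 0.37, 0.25 and -0.37. MYCL fell by 0.61 on the log2 scale from 2.68 mean CPM. USP28, a deubiquitinase that stabilises MYC, fell by 0.68 and the kinase AURKA fell by 0.90, while FBXW7, the ubiquitin ligase subunit that targets MYC, had a log2 fold change of 0.13 (edgeR adjusted p value 0.203). In all, of 16 listed MYC partners and regulators 15 were measured, 6 rose and 5 fell, and 5 were called, 1 higher and 4 lower. Of the 15, 73.3% passed the test and 33.3% were called, against 57.6% and 19.3% of all genes.

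Of 30 genes listed as known MYC targets, 29 were measured, of which 15 rose and 6 fell and 4 were called, with a median log2 fold change of 0.16. The called share was 13.8%, below the 19.3% of all genes, while 72.4% passed the test against 57.6% of all genes. The 3 called rises were factors of ribosome synthesis, RRP12 (0.67), NOP2 (0.60) and MYBBP1A (0.60), of which the last pair lay close to the minimum of 0.58, and without GCNT1 overexpressing library 1 the list had 2 called genes in place of 4. The called fall was LDHA, lactate dehydrogenase A, from 3937 ± 26.8 to 2500 ± 36.5 CPM (log2 fold change -0.65, edgeR adjusted p value 1.00e-08). More genes rose than fell, but the summed level of the list was 9890 to 10125 CPM in controls and 8234 to 8600 with overexpression; LDHA holds a large part of it.

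Other leucine zipper factors that pair with AP-1 subunits were counted next. Of 14 listed, 10 were measured, 2 rose and 4 fell, and 3 were called. The share that passed the test was 60%, near the 57.6% of all genes, and 30% were called against 19.3%. ATF3, a stress-induced partner of JUN, rose from 6.46 ± 1.30 to 13.2 ± 1.25 CPM (log2 fold change 1.03, edgeR adjusted p value 3.02e-05). JDP2, which pairs with JUN and represses AP-1 activity, had counts of 85, 84 and 85 in controls and of 2, 1 and 1 in overexpressing lines. Its pooled level was 67.9-fold lower (95% exact binomial interval 26.2 to 251, for counting error only), and JDP2-AS1 overlaps it on the opposite strand. JDP2 has its row in the count table through the control libraries alone. CREB5 fell by 0.59 and ATF2 by 0.16 on the log2 scale, MAFF fell by 0.21 and MAFK rose by 0.47. ATF4, ATF7, MAFG and BATF2 did not pass the test.

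The other immediate early genes changed in both directions, as did all genes tested (28.3% higher and 29.3% lower). Of 42 listed, 35 were measured, 16 rose, 10 fell and 9 did not pass the test, and of the 10 called genes 5 were higher and 5 lower, with a median log2 fold change of 0.19. Of the 35, 74.3% passed the test and 28.6% were called, against 57.6% and 19.3% of all genes. ATF3 and MAFF are counted here and among the partners, and SRF here and among the upstream genes, so that ATF3 is 1 called rise in both counts. The matricellular genes CCN1 and CCN2 rose most, CCN1 from 94.7 ± 8.13 to 381 ± 58.1 CPM (log2 fold change 2.01, edgeR adjusted p value 2.44e-09) and CCN2 from 123 ± 5.92 to 330 ± 45.3 CPM (log2 fold change 1.42, edgeR adjusted p value 1.48e-08). BTG2, an antiproliferative gene, had counts of 26, 28 and 30 in controls and of 10, 13 and 14 in overexpressing lines (log2 fold change -1.27, edgeR adjusted p value 0.000428). The row of BTG2 in the count table stands through its control libraries. DNAJB1, HSPA8, BAG3 and other heat shock genes, which respond to handling of the cells, were set beside these: of 12 listed 10 were measured, 2 rose, 2 fell and the median log2 fold change was 0.00. Thus 40% of these passed the test, against 57.6% of all genes. HSPA6 rose from 14.8 ± 0.238 to 31.7 ± 6.44 CPM and HSP90AA1 fell from 2937 ± 120 to 1936 ± 15.7, and the summed level of the list was 6247 to 6544 CPM in controls against 5214 to 5241 with overexpression. The part of handling in the changes of the immediate early genes was not tested.

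Upstream of these genes lie MAP kinases, SRF with its ELK partners, and CREB1. All 25 genes of this list were measured, 5 rose and 8 fell, and 1 was called, or 2 without control 1 and with library size alone. In the reported fit 52% passed the test and 4% were called, against 57.6% and 19.3% of all genes. The called gene was CREB1, a factor that binds the CRE, which fell from 62.2 ± 7.11 to 35.2 ± 3.34 CPM (log2 fold change -0.82, edgeR adjusted p value 5.54e-06), with METTL21A on the opposite strand. These are transcript levels, and kinase activity was not measured.

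Of 24 genes listed as known AP-1 targets, 17 were measured, 7 rose, 5 fell and 7 were called, 4 higher and 3 lower, with a median log2 fold change of 0.03. Of the 17, 70.6% passed the test and 41.2% were called, against 57.6% and 19.3% of all genes. The chemokine CXCL8 rose from 3.65 ± 0.542 to 8.67 ± 0.382 CPM (log2 fold change 1.24, edgeR adjusted p value 6.64e-06). GJA1, which encodes connexin 43, fell from 97.5 ± 3.06 to 30.0 ± 2.76 CPM (log2 fold change -1.69, edgeR adjusted p value 4.02e-10). MMP10, a stromelysin, had counts of 17, 23 and 16 in controls and of 3, 6 and 4 in overexpressing lines (log2 fold change -2.17, edgeR adjusted p value 0.000134). Its row in the count table stands through the control libraries alone, since the overexpressing ones had 0.259 to 0.437 CPM.

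**Figure D4:**
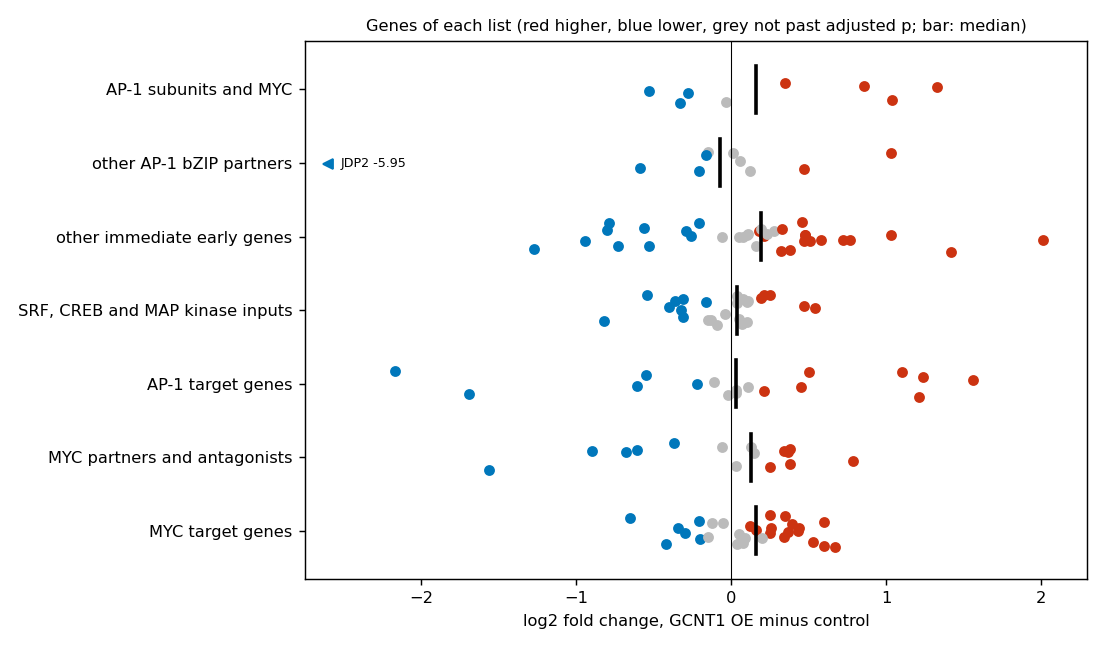
Each point is 1 gene's log2 fold change (horizontal axis, GCNT1 overexpression minus control), by list (rows), in red where higher and blue where lower at an adjusted p value under 0.05 and in grey otherwise; black bars are medians, and JDP2 lies beyond the left edge. The AP-1 subunits with MYC and 6 lists are plotted (partners, other immediate early genes, upstream inputs, AP-1 targets, MYC partners and MYC targets), and each row holds genes of both directions, with medians between -0.07 and 0.19, and CCN1 at 2.01 lies farthest to the right.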

How the data were processed

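RNA of 3 control and 3 GCNT1 overexpressing PC3 lines was sequenced as stranded mRNA libraries with single reads of 75 bp. The authors used FastQC and Cutadapt, mapped to hg38 with HISAT2, ran featureCounts in Galaxy 22.01 and deposited raw read counts per gene. The annotation and the strand setting are not given in the sources used here. Entrez identifiers were matched to RefSeq symbols for 12661 of 12703 genes. In every gene of the table the 3rd highest library had at least 1.01 CPM by library size alone. JDP2, BTG2 and MMP10 reached this through the controls, and GCNT1 through the overexpressing libraries. Their tests thus rest partly on that selection, and absence of a row is not absence of expression.

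edgeR 4.0.16 under R 4.3.3 was used on the counts (genes by filterByExpr, factors by TMM, quasi-likelihood test of the groups, Benjamini-Hochberg adjustment over 12703 genes). Standard errors are the log2 fold change over the root of the F statistic. Alternatives were library size alone, RLE factors, no filter, limma-voom (limma 3.58.1), DESeq2 1.42.0, a minimum of 10 counts in every library, the replicate block and each library left out. The code was tested on simulated data.

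The 10 genes and the lists were chosen with earlier results of these data known. Named genes outside the 10 were, per list, up to 4 called genes with the largest change, or the one with the smallest p, and any gene of lists of 16 or fewer; SRF, for its binding site, was added after its values were seen. CPM are counts relative to the TMM-scaled library total. Transcript lengths and overlaps are from GENCODE 44, and neighbours from 50 genes by RefSeq position. Mitochondrial transcripts, listed as a check of RNA quality, were not analysed here. Some genes that the naming rule takes are not reported here.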

Additional observations from a re-analysis of the deposited data

How the results depend on the processing

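FOS, FOSB, JUNB and MYC stayed higher and FOSL2, JUN and JUND lower at an adjusted p value under 0.05 in all 13 alternative fits each, and 3 of the 8 genes, namely FOS, FOSB and MYC, were called in each. One of these, the fit with no filter, is the reported fit itself, since the filter removed no gene, and is no test of stability. The log2 fold change ran from 0.67 to 1.00 for FOS, 1.21 to 1.49 for FOSB, 1.01 to 1.10 for MYC, 0.27 to 0.41 for JUNB, -0.57 to -0.47 for FOSL2, -0.29 to -0.23 for JUN and -0.40 to -0.27 for JUND. FOSL1 passed in none. Its sign turned with library size alone (0.03), and it ran from -0.10 to 0.05 with 1 library left out. GCNT1 had an adjusted p value of 0.0821 in DESeq2 (log2 fold change 0.98), and with 1 library left out it ran from 0.49, without GCNT1 overexpressing library 3 (adjusted p value 0.269), to 1.21, failing also without control 1 (0.092) and control 3 (0.0944); the filter at 10 counts removed it. Library size alone moved the median of all genes from 0.001 to 0.059 on the log2 scale. Deviations of same-numbered libraries correlated at -0.128 on average over genes and those of other library pairs at 0.0644, so the numbers were not taken to pair the libraries. With the replicate block 2423 genes were called against 2457, GCNT1 had a log2 fold change of 0.94, and no call among the 8 genes changed. Shares of counts not divided by length were 94.4% and 95.6% for FOSL1 and 16.4% and 23.5% for JUNB in controls and overexpressing libraries. The called genes went from 1 to 2 among the upstream inputs (library size alone, or without control 1), from 4 to 2 among the MYC targets (without GCNT1 overexpressing library 1) and from 2 to 1 among the heat shock genes (library size alone). Depth limits FOS and FOSB, with 14 to 57 counts a library.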

Other observations

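The CArG box noted before FOS and FOSB was then counted over all promoters, a look chosen after the data were seen. Of 173 genes with a CArG box in the 400 bases before their start, 44 rose and 69 fell, beside 2888 and 3020 of all 10235 genes whose promoter could be read, and 16 were called higher (9.25%) and 26 lower (15%). Of the 10235 genes, 7.76% were called higher and 10.5% lower. The median log2 fold change was -0.04 with a CArG box and 0.00 over all of them. The other called immediate early genes, named after their values were seen, were CSRNP1 (log2 fold change 0.77) and PLK2 (0.72), which rose, and RHOB (-0.94), IER5L (-0.80), LIF (-0.79) and SGK1 (-0.73), which fell.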
